A study of Mus musculus with 72 samples.

Results

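The TNF superfamily pairs ligands, named Tnfsf with a number, with receptors, named Tnfrsf with a number, and its transcripts were followed here in the liver and lung of irradiated mice. Members were the genes whose mouse symbol began with Tnfrsf or Tnfsf and a digit, less the symbols left out by the rule, and that had a probe well above background on at least 1 of the 36 mRNA arrays. This gave 27 genes with 38 probes, out of 29 such genes with 43 probes on the array and 20981 named genes above background in the series. The 2 genes without such a probe were Tnfrsf8 and Tnfsf8, and another 2 probes of Tnfrsf23 and 1 of Tnfsf11 were left out for the same reason. Among the probes just inside the threshold, those of Tnfsf4 and Tnfsf18, the second probe of Tnfrsf13c and 1 of the 3 probes of Tnfrsf13b (A_51_P106269) were above background on 2 arrays each, and that of Tnfsf11 on 3. No probe was named Tnfsf13 here.

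All animals were female C57BL/6 J mice of 6 to 8 weeks. They received 1, 2, 4, 8 or 12 Gy of X-rays to the whole body in 1 exposure, at 1.05 Gy per minute, and the 0 Gy controls were sham irradiated in the same kind of container. Tissue was taken 48 h later, and each of the 6 dose groups held 3 mice for liver and 3 for lung, each on 1 single-colour Agilent array. The labels name no added allele in any group, and both tissues were sampled at that 1 time only.

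Ligands of the family are made by immune, stromal and epithelial cells, mostly as membrane proteins that act as trimers. Their receptors signal either through a death domain, which can start apoptosis, or through TRAF adaptors, which lead to NF-kappaB and to survival, growth and costimulation of lymphocytes. Some receptors lack a signalling tail and act as decoys.

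The 2 tissues matched their labels. All 10 hepatocyte markers were above background on all 18 liver arrays, and all 8 lung epithelial markers on all 18 lung arrays. The share of spots well above background ran from 46.13 to 53.99% in liver and from 54.14 to 63.99% in lung, and precision is bounded by having 3 arrays a group. The arrays were spread over 5 slides. In lung, the 0 and 1 Gy arrays shared a slide, all arrays from 2 Gy up lay on other slides, and 1 of those slides (the 12 Gy mice and 8 Gy mouse 25) was scanned on another day. The 4 arrays of that slide had 54.14 to 54.81% of spots above background, against 59.17 to 63.99% on the other 14 lung arrays, and the lung array of 12 Gy mouse 16 had 1578 outlier spots, against 110 to 600 on the other lung arrays. These differences moved with the 12 Gy lung results, and their part was not tested. Slide and dose cannot be told apart where lung doses from 2 Gy up are set against 0 Gy. In liver, the 0 Gy arrays shared a slide with the 1 Gy arrays and with 2 of the 2 Gy arrays. Another slide held the 4 and 8 Gy livers with 2 Gy mouse 23 and 12 Gy mouse 6. The other 2 of the 12 Gy livers lay on the slide of the 0 and 1 Gy lungs. Changes within single slides are therefore given beside the results. Those within the slide of the 2 to 12 Gy livers rest on 1 array at each end of that dose range. Lymphocyte transcripts moved with dose. At 12 Gy, 12 of 14 B cell markers tested fell in lung (median log2 change -3.75) and 7 of 13 in liver (median -1.01), and 12 of 13 T cell markers fell in lung (median -2.73) and 5 of 12 in liver. In these bulk tissues, fewer cells of a type and less RNA per cell cannot be told apart.

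A change is called here where the log2 difference was over 1 in size and limma's adjusted p was under 0.05. Genes that passed both at some dose or in the dose trend were Tnfrsf13b, Tnfrsf13c, Tnfsf10 and Tnfrsf18. Their promoters are shown because all 4 moved in the same direction, and a reader may want to compare what precedes their start sites. Each runs from 250 bases before to 50 bases after the start, on the gene's own strand, in RefSeq's annotation of GRCm38.p6. They lie at chr11:61126505-61126804 (plus strand, Tnfrsf13b), chr15:82224331-82224630 (minus strand, Tnfrsf13c), chr4:156026072-156026371 (plus strand, Tnfrsf18) and chr3:27316827-27317126 (plus strand, Tnfsf10). Capitals mark matches to the motifs searched.
Tnfrsf13b: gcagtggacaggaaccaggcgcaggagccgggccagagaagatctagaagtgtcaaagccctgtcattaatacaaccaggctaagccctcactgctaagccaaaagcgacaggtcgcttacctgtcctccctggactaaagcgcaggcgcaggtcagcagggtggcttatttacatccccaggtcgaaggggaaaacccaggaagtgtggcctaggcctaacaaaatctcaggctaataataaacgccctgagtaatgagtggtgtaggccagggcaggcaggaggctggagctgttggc
Tnfrsf13c: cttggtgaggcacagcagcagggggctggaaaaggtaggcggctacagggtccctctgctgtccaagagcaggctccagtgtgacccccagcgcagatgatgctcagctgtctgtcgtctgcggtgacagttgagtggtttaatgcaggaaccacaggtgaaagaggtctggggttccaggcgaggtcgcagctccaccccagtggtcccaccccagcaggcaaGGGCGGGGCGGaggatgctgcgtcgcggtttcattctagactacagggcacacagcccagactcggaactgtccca
Tnfrsf18: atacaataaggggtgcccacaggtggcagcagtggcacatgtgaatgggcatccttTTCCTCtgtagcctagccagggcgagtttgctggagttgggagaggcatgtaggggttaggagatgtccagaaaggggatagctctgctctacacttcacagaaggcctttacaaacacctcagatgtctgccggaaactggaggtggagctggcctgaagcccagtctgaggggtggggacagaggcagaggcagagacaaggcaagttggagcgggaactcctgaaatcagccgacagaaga
Tnfsf10: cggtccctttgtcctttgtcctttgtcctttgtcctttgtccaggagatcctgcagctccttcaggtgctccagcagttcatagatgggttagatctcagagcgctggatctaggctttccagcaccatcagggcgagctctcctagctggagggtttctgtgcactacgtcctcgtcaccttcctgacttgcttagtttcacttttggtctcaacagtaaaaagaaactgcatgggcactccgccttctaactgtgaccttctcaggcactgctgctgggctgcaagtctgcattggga

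In the Tnfrsf13c promoter the capitals are 2 overlapping GC boxes (GGGCGG), which share a base and end 16 bases before the start. In the Tnfrsf18 promoter they are the PU.1 core GAGGAA, read on the opposite strand as TTCCTC, at positions -194 to -189 from the start. No searched motif matched in the Tnfrsf13b and Tnfsf10 windows, which says only that these letters are not there. Of the 27 genes, 21 had a promoter in the table, 25 promoters in all, and Tnfsf4, Tnfrsf11b, Tnfsf12, Tnfrsf22, Tnfsf9 and Tnfrsf26 had none. On both strands, the GC box was in 10 of the 25 family promoters (40.0%) against 35.7% of all 32851 promoters, and the PU.1 core in 8 (32.0%) against 28.3%. The octamer ATGCAAAT, known from B cell genes, was in 0 of 25 against 1.74% of all. TATAAA was in 4 (16.0%) against 13.6%, CACGTG in 3 (12.0%) against 7.15%, the AP-1 letters TGANTCA in 4 (16.0%) against 7.81% and the interferon response letters GAAANNGAAA in 4 (16.0%, of Tnfrsf14, Tnfrsf17, Tnfrsf1b and Tnfsf13b) against 3.44%. The NF-kappaB motif was in 1 (4.0%, Tnfrsf9) against 4.51%, and the p53 decamer in 3 (12.0%, of Tnfrsf25 and Tnfsf13b) against 8.36%. The GC content of the family promoters ran from 43.7 to 76.7% with a median of 53.7%, against 52.7% over all promoters, and these shares are descriptions of letters with no test.

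The comparison of each dose with 0 Gy asked which family transcripts had moved 48 h after exposure. In lung, 4 of the 36 family probes tested were called at 1 dose or more (7.77% of all 43979 probes were). They were those of Tnfrsf13b and Tnfrsf13c, family receptors of B cells, the death ligand Tnfsf10 and Tnfrsf18, a family receptor of T cells. All of them fell. In liver, 3 of 32 were called (3.17% of all 38362), those of Tnfrsf13b, Tnfrsf13c and Tnfsf10, and again all fell. No family probe was called as risen in either tissue. By dose, lung had 0 called at 1 Gy (0.0227% of all probes), 2 at 2 Gy (0.446%), 2 at 4 Gy (1.46%), 3 at 8 Gy (2.51%) and 4 at 12 Gy (7.29%). Liver had 0 at 1 Gy (0.0339%), 0 at 2 Gy (0.245%), 1 at 4 Gy (0.944%), 0 at 8 Gy (2.2%) and 3 at 12 Gy (2.06%). Where limma called 0, the family probes at an unadjusted p under 0.05 numbered 4 of 36 in lung at 1 Gy (5.52% of all probes), and of 32 in liver 1 at 1 Gy (7.08%), 2 at 2 Gy (11.8%) and 8 at 8 Gy (25.2%). Read against those shares, the called lung count at 12 Gy was close to the background, and the called counts of lung at 2, 4 and 8 Gy and of liver at 4 and 12 Gy were above it, each resting on 1 to 3 probes.

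**Figure D1:**
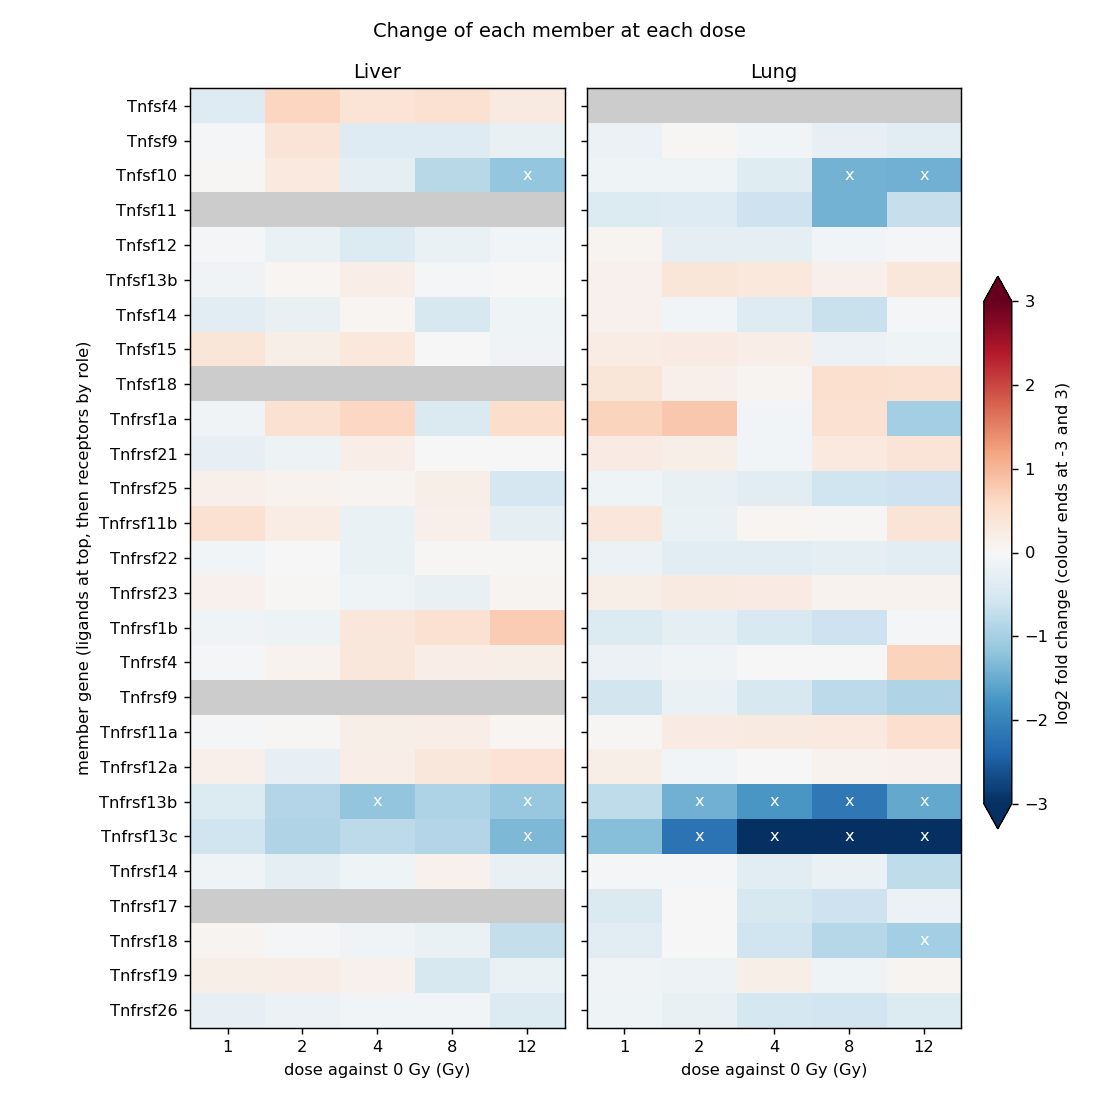
Heat map of the log2 change against 0 Gy of the brightest probe of each of the 27 genes (rows) at 5 doses in Gy (columns), for liver and lung. Blue and red mark lower and higher levels on a scale that ends at -3 and 3, a cross marks a called change and grey a gene not tested in that tissue, and the deepest colours are Tnfrsf13c in lung from 4 Gy up.

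For the dose trend, a straight line through all 6 doses was fitted, and trends below are log2 differences between its ends at 0 and 12 Gy. In lung, 4 of 36 probes had a called trend (7.02% of all), those of the same 4 genes, and 13 passed the adjusted p alone, 3 upward and 10 downward (30.7% of all probes passed it). In liver, 1 of 32 had a called trend (2.02% of all), and 5 passed the adjusted p alone, 1 upward and 4 downward (9.51% of all). The median trend of the family probes was -0.24 in lung, against 0.08 over all probes, and -0.10 in liver, against 0.0038. For the medians by role, every Tnfrsf gene outside the death domain and the decoy or secreted groups was counted as TRAF-binding, Tnfrsf26 among them. With 1 probe a gene, the 8 ligands tested in lung had a median trend of -0.31 with 1 called, the 3 death domain receptors -0.61 with 0 called, the 3 decoy or secreted receptors -0.03 with 0 called and the 12 TRAF-binding receptors -0.31 with 3 called. In liver the same medians were -0.12 for 7 ligands with 1 called, 0.12 for the 3 death domain receptors, -0.08 for the 3 decoy or secreted receptors and -0.11 for 10 TRAF-binding receptors, these 3 groups with 0 called. At an unadjusted p under 0.05, limma found 1 liver and 2 lung death domain receptors, 0 decoy or secreted receptors in either tissue and 6 TRAF-binding receptors in liver, where 23.4% of all liver probes and 41.4% of all lung probes had one.

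Tnfrsf13c, the BAFF receptor that mature B cells need to survive, changed most. On the log2 intensity scale of the lung arrays, the 3 mice at 0 Gy had 9.30, 9.88 and 10.29, those at 1 Gy 8.78, 8.18 and 8.70, and those at 2 Gy 7.54, 7.95 and 7.36. The 4 Gy mice had 7.13, 6.66 and 6.57, the 8 Gy mice 4.83, 5.04 and 4.24, and the 12 Gy mice 4.18, 4.75 and 3.90. Every irradiated lung lay below every control lung, each dose group up to 8 Gy lay below the one before it, and at 8 and 12 Gy the probe was above background on 0 of 3 arrays. The change against 0 Gy was not called at 1 Gy (-1.27, adjusted p = 0.2), and it was -2.21 at 2 Gy (adjusted p = 0.002) and -3.04 at 4 Gy (adjusted p = 2.6e-05), each with an SE of 0.30. At 8 Gy the level was at least 27.2-fold lower (measured means 9.82 and 4.70, adjusted p = 5.4e-08) and at 12 Gy at least 26.2-fold lower (mean 4.28, adjusted p = 1.8e-08), bounds set by the dimmest signal that counted as above background. The lung trend was -5.36 ± 0.43 (SE, adjusted p = 1.9e-07). Within the slide of the 0 and 1 Gy lungs the level changed by -1.27 ± 0.34 from 0 to 1 Gy, within the slide of the 2 to 8 Gy lungs by -2.69 ± 0.23 from 2 to 8 Gy, and within the slide of the 8 and 12 Gy lungs by 0.03 ± 0.50, where the probe was not above background. With the slide as a fixed term the trend was -4.49 (adjusted p = 0.027).

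In liver Tnfrsf13c was near background from the start. The 0 Gy mice had 5.38, 5.34 and 5.46, above background on 2 of 3 arrays, and the 12 Gy mice 3.38, 4.61 and 4.12, above background on 0 of 3. The groups did not overlap, and the 12 Gy level was at least 1.85-fold lower (change -1.36 ± 0.36, adjusted p = 0.035). Leaving out 0 Gy mouse 1, 11 or 21 or 12 Gy mouse 6 or 26 ended that call, with a change of -1.02 without 12 Gy mouse 6 and an adjusted p of up to 0.16, and with the slide as a fixed term the change was -3.04 (adjusted p = 0.032). Of 9 alternatives other than leaving out a mouse, 5 lost the call, and the changes under all 9 ran from -3.04 to -0.45. The liver trend of -0.95 ± 0.30 missed both thresholds (adjusted p = 0.056) and passed them without 1 Gy mouse 12 (-1.03), 2 Gy mouse 3 (-1.01) or 13 (-1.02), 8 Gy mouse 5 (-1.01) or 12 Gy mouse 16 (-1.16). Within the slide of the 0 to 2 Gy livers it changed by -1.25 ± 0.23, and within that of the 2 to 12 Gy livers by -1.31 ± 0.53. The only 12 Gy liver on the latter slide was mouse 6, which read 3.38 and was not above background.

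Tnfrsf13b, or TACI, is the receptor for BAFF and APRIL on activated and marginal zone B cells. In lung its brightest probe (A_55_P1981964) read 10.93, 11.18 and 11.49 at 0 Gy, 10.44, 10.46 and 10.40 at 1 Gy, 9.65, 9.90 and 9.69 at 2 Gy, and 9.53, 9.40 and 9.46 at 4 Gy. It read 8.97, 8.71 and 9.46 at 8 Gy and 9.46, 10.14 and 9.39 at 12 Gy. All irradiated lungs lay below all control lungs, and the lowest readings were at 8 Gy, not at 12 Gy. The changes were -1.45 at 2 Gy, -1.74 at 4 Gy, -2.15 at 8 Gy and -1.53 at 12 Gy (SE 0.22 each, adjusted p = 0.004, 0.00028, 1.7e-05 and 0.00027), and -0.77 at 1 Gy was not called (adjusted p = 0.44). The trend was -1.32 ± 0.37 (adjusted p = 0.012). Without the slide scanned on another day no 12 Gy lung was left, and the line through 0 to 8 Gy, extended to 12 Gy, came to -3.28. Within the slide of the 0 and 1 Gy lungs the change was -0.77 ± 0.16 and within that of the 2 to 8 Gy lungs -0.91 ± 0.10, and with the slide as a fixed term the trend came to -1.51, which missed the threshold (adjusted p = 0.41). The call at 2 Gy was not kept with the slide as a random block (-1.36, adjusted p = 0.14).

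In liver the same Tnfrsf13b probe read 6.50, 6.95 and 6.64 at 0 Gy, 5.62, 5.72 and 5.18 at 4 Gy, 5.97, 5.48 and 5.88 at 8 Gy and 5.35, 5.68 and 5.64 at 12 Gy. The 4, 8 and 12 Gy livers all lay below the controls. The change was -1.19 ± 0.19 at 4 Gy (adjusted p = 0.0041) and -1.14 ± 0.19 at 12 Gy (adjusted p = 0.0021), both called. At 8 Gy it was -0.92 (adjusted p = 0.0081), under the fold threshold, and past it without 0 Gy mouse 1 (-1.02) or 8 Gy mouse 5 (-1.02). With the slide as a fixed term the changes were -1.29 at 4 Gy and -1.45 at 12 Gy, neither of them called (adjusted p = 0.23 and 0.13). The level changed by -0.91 ± 0.20 within the slide of the 0 to 2 Gy livers.

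The probes of Tnfrsf13b did not move alike. A second probe of the same transcript (A_55_P1981972, NM_021349) read 7.09, 7.10 and 6.53 in the 0 Gy lungs and 7.17, 8.22 and 7.63 in the 12 Gy lungs, with a trend of 0.62 ± 0.18 (adjusted p = 0.013), opposite in sign to the brightest probe. Its 12 Gy values were above the 0 Gy values in every mouse. The remaining probe (A_51_P106269) was above background on 0 of 3 arrays in the 0 and 12 Gy groups of both tissues. The second probe of Tnfrsf13c was above background on 1 of the 0 Gy lungs and on 0 of the 12 Gy lungs, with a lung trend of -0.74 ± 0.44 (adjusted p = 0.21).

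**Figure D2:**
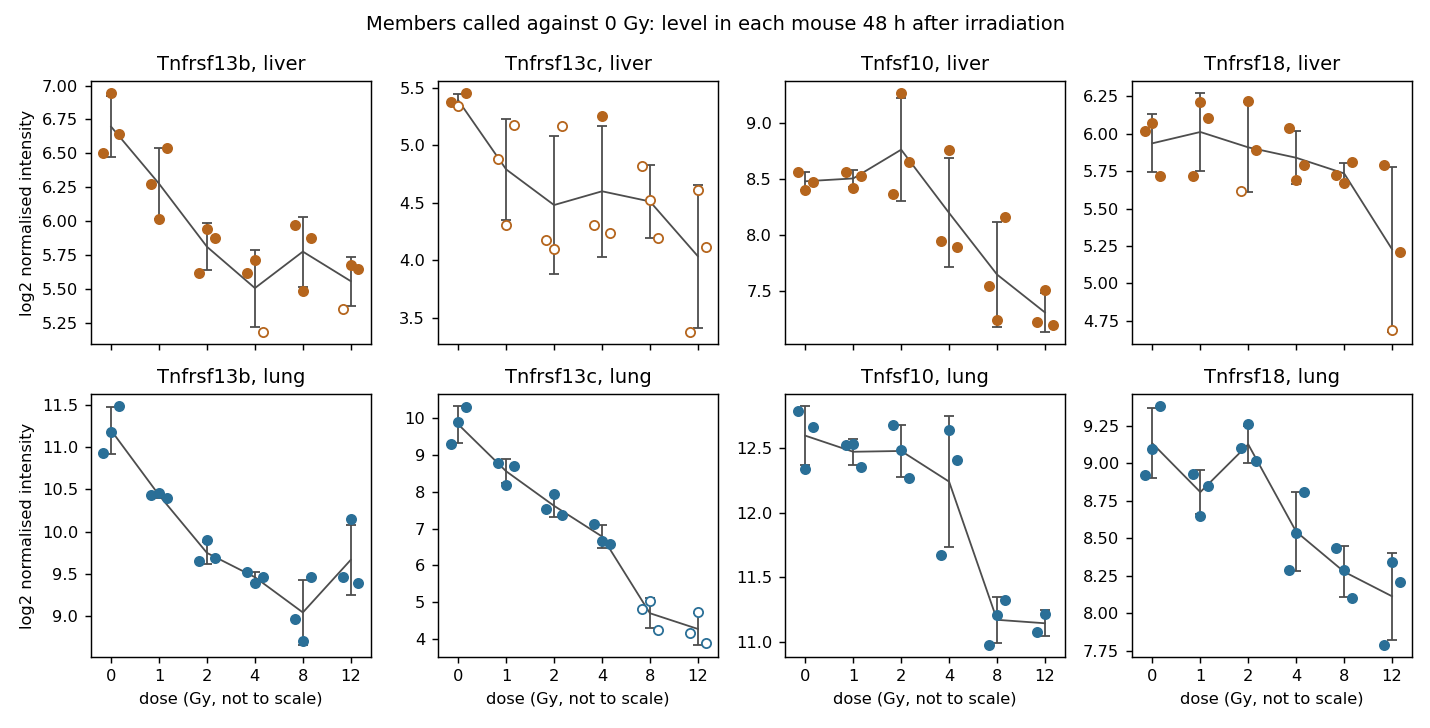
Log2 normalized intensity of Tnfrsf13b, Tnfrsf13c, Tnfsf10 and Tnfrsf18 (columns) in liver and lung (rows) at each dose in Gy, where points are mice, open points are readings not above background and lines with bars are means with SD of 3 mice. Lung Tnfrsf13c goes from 9.30 to 10.29 at 0 Gy down to 3.90 to 4.75 at 12 Gy, and lung Tnfsf10 stays near its control level up to 2 Gy. Doses are evenly spaced and each panel has its own vertical scale.

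The other parts of the BAFF system gave no called dose change. The ligand Tnfsf13b (BAFF), made largely by myeloid and stromal cells, read 10.02, 9.62 and 10.25 in the 0 Gy lungs and 10.41, 10.37 and 10.15 in the 12 Gy lungs, which overlapped (change 0.35 ± 0.21, adjusted p = 0.25). In liver it was above background on 1 of 3 arrays at 0 Gy and on 1 of 3 at 12 Gy. Tnfrsf17 (BCMA), the receptor of plasma cells, read 6.26, 6.73 and 6.42 at 0 Gy and 6.04, 6.78 and 6.08 at 12 Gy in lung (change -0.17 ± 0.29, adjusted p = 0.72) and was above background on no liver array. Beside these values, B cell markers summed on the linear scale, as log2, ran from 14.43 to 15.54 in the 0 Gy lungs and from 12.20 to 12.56 in the 12 Gy lungs, and in liver from 10.64 to 10.95 and from 9.30 to 9.42. At 12 Gy, 8 of the 14 B cell markers tested in lung were above background on 0 of 3 arrays, among them Cd79a, Pax5, Blk and Cd22, and so were 8 of 13 in liver, among them Cd79a and Ms4a1, while at 0 Gy this held for 0 in either tissue. Of 5 plasma cell markers, 2 fell in lung and 0 in liver. The part of B cell content in the falls of Tnfrsf13b and Tnfrsf13c was not tested.

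Tnfsf10 is TRAIL, the ligand that can start apoptosis through death receptors and that NK cells and other cells carry. In lung the 0 Gy mice read 12.78, 12.34 and 12.66, the 1 Gy mice 12.52, 12.53 and 12.35, the 2 Gy mice 12.67, 12.49 and 12.27, and the 4 Gy mice 11.67, 12.64 and 12.40. The 8 Gy mice read 10.98, 11.21 and 11.33, and the 12 Gy mice 11.08 and 11.22, with 1 reading missing as an outlier spot. The level was thus flat within the spread up to 2 Gy, spread out at 4 Gy, and lay below every control at 8 and 12 Gy. The change was -1.42 ± 0.22 at 8 Gy (adjusted p = 0.0011) and -1.45 ± 0.24 at 12 Gy (adjusted p = 0.0013), and the trend was -1.73 ± 0.22 (adjusted p = 2.5e-05). Within the slide of the 2 to 8 Gy lungs the level changed by -1.40 ± 0.31, and with the slide as a fixed term the trend was -2.34 (adjusted p = 0.042).

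Liver Tnfsf10 also fell at the higher doses. The 0 Gy mice read 8.56, 8.40 and 8.47, and the 2 Gy mice 8.37, 9.26 and 8.65, which spread more widely and overlapped the controls. The 4 Gy mice read 7.94, 8.76 and 7.89, the 8 Gy mice 7.54, 7.24 and 8.16, and the 12 Gy mice 7.22, 7.51 and 7.19. At 12 Gy and at 8 Gy all lay below all controls. The change at 12 Gy was -1.17 ± 0.27 (adjusted p = 0.015), at 8 Gy -0.83 (adjusted p = 0.062, and called at -1.09 without 8 Gy mouse 25) and over the trend -1.38 ± 0.22 (adjusted p = 0.00057), the 1 called family trend in liver. Leaving out 0 Gy mouse 1 or 12 Gy mouse 6 or 26 moved the adjusted p at 12 Gy to 0.054, 0.057 and 0.057 with changes from -1.11 to -1.13, and with the slide as a fixed term the trend came to -1.44 (adjusted p = 0.19). Within the slide of the 2 to 12 Gy livers the level changed by -1.38 ± 0.46 and within that of the 0 to 2 Gy livers by 0.32 ± 0.25. NK cell markers also fell, with 5 of 5 falling at 12 Gy in lung (median -1.77, summed level 13.10 to 13.20 at 0 Gy and 10.82 to 11.89 at 12 Gy, 0 of them lost to background on all 3 arrays) and 2 of 5 in liver (9.60 to 9.79 and 8.52 to 8.93). The lung NK sum was below its controls already at 4 Gy (12.00 to 12.70), where lung Tnfsf10 overlapped its own. At 12 Gy the lung B cell, T cell and endothelial sums also lay below their controls, while the macrophage and fibroblast sums overlapped theirs. The part of any cell type in the fall of Tnfsf10 was not tested.

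The mouse decoy receptors that bind TRAIL without a signal, Tnfrsf22 and Tnfrsf23, stayed near their control levels by the brightest probe. Lung Tnfrsf22 read 7.08, 7.24 and 7.03 at 0 Gy and 6.61, 6.88 and 6.83 at 12 Gy (change -0.35 ± 0.16, adjusted p = 0.13), and its second probe had a lung trend of -0.62 ± 0.21 (adjusted p = 0.029). Lung Tnfrsf23 read 7.90, 8.27 and 8.10 at 0 Gy and 8.13, 8.30 and 8.15 at 12 Gy (change 0.10 ± 0.16, adjusted p = 0.68). In liver the 12 Gy changes were 0.04 ± 0.17 for Tnfrsf22 and 0.07 ± 0.19 for Tnfrsf23. Tnfrsf26, a receptor of the same gene family in mouse, changed by -0.42 ± 0.24 in lung and by -0.41 ± 0.23 in liver (adjusted p = 0.23 and 0.35), neither called.

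Among the receptors that costimulate T cells, Tnfrsf18 (GITR), which regulatory T cells carry at high level, fell in lung. It read 8.92, 9.10 and 9.38 at 0 Gy, 8.93, 8.65 and 8.85 at 1 Gy, 9.10, 9.26 and 9.02 at 2 Gy, 8.28, 8.54 and 8.81 at 4 Gy, 8.44, 8.29 and 8.10 at 8 Gy, and 7.79, 8.34 and 8.21 at 12 Gy. From 4 Gy up all lungs lay below all controls. The change was -1.02 ± 0.18 at 12 Gy (adjusted p = 0.0017) and the trend -1.03 ± 0.17 (adjusted p = 0.00021), both close to the fold threshold. Without 0 Gy mouse 21 the 12 Gy change was -0.90 and without 12 Gy mouse 6 it was -0.86, both under that threshold, and the trend fell under it without 0 Gy mouse 21 (-0.97), 2 Gy mouse 13 (-0.99), 8 Gy mouse 25 (-0.99) or 12 Gy mouse 6 (-0.94), while with the slide as a fixed term it was -1.21 (adjusted p = 0.4). It changed by -0.73 ± 0.23 within the slide of the 2 to 8 Gy lungs. In liver Tnfrsf18 read 6.02, 6.07 and 5.72 at 0 Gy and 5.79, 4.69 and 5.21 at 12 Gy, which overlapped, with a trend of -0.69 ± 0.18 that passed the adjusted p (0.021) but not the fold.

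Tnfrsf9, an activation receptor of T and NK cells, was above background on no liver array. In lung it read 7.00, 6.94 and 7.31 at 0 Gy and 6.15, 6.43 and 5.96 at 12 Gy, with no overlap. The change at 12 Gy was -0.90 ± 0.19 (adjusted p = 0.0046) and the trend -0.77 ± 0.17 (adjusted p = 0.0027), and its second probe had a trend of -0.64 ± 0.18 (adjusted p = 0.011). Without 12 Gy mouse 16 the 12 Gy change was -1.04, past the fold threshold. It changed by -0.46 ± 0.19 within the slide of the 2 to 8 Gy lungs.

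Tnfrsf4, the costimulatory receptor of activated T cells, went the other way in lung. It read 9.25, 9.31 and 9.28 at 0 Gy, 9.03, 9.36 and 9.41 at 8 Gy and 9.80, 10.39 and 9.68 at 12 Gy. Only at 12 Gy did all lungs lie above all controls, and those were the arrays of the slide scanned on another day. The 12 Gy change was 0.68 ± 0.18 (adjusted p = 0.016) and the trend 0.66 ± 0.17 (adjusted p = 0.0063), under the fold threshold. In liver it changed by 0.17 ± 0.16 at 12 Gy (adjusted p = 0.64). Tnfrsf14, or HVEM, which lymphocytes use to bind LIGHT, read 5.29, 6.32 and 5.80 in the 0 Gy lungs and 5.21, 4.99 and 4.93 at 12 Gy, where it was above background on 0 of 3 arrays, with a trend of -0.66 ± 0.17 (adjusted p = 0.0072).

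The ligands of these receptors were not called in either tissue. In lung the 12 Gy changes were -0.31 ± 0.21 for Tnfsf9, the ligand of Tnfrsf9, and -0.06 ± 0.22 for Tnfsf14, which is LIGHT, and both groups overlapped their controls. Lung Tnfsf14 read 6.79, 6.78 and 6.92 at 0 Gy, 6.39, 6.51 and 6.42 at 4 Gy, and 5.71, 6.00 and 6.75 at 8 Gy. At 4 and 8 Gy it thus lay below every control, and the 12 Gy lungs were on the slide scanned on another day. Tnfsf18, the ligand of Tnfrsf18, was above background on 2 lung arrays only, and Tnfsf4, the ligand of Tnfrsf4, on 2 liver arrays only, so neither gives a level. Beside the family receptors of T cells, the summed T cell markers ran from 13.91 to 15.90 in the 0 Gy lungs and from 12.06 to 12.60 in the 12 Gy lungs. Of 4 regulatory T cell markers, 2 fell in lung at 12 Gy and Ctla4, Foxp3 and Il2ra were above background on 0 of 3 arrays there, while the summed level of all 4 was 8.86 to 9.67 at 0 Gy and 8.86 to 9.26 at 12 Gy. In liver, Foxp3 and Il2ra were above background on no array. The part of T cell content in these changes was not tested.

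Of the 3 receptors with a death domain, none was called. At 12 Gy limma put 1 in each tissue at an unadjusted p under 0.05, as it did 35.3% of all lung probes and 20.5% of all liver probes. Tnfrsf25, which T cells use to bind Tnfsf15, read 8.82, 8.68 and 8.87 in the 0 Gy lungs and 8.53, 7.90 and 8.10 at 12 Gy, with no overlap. Its 12 Gy change was -0.62 ± 0.20 (adjusted p = 0.036) and its trend -0.61 ± 0.15 (adjusted p = 0.0049). In liver it was above background on 3 of 3 arrays at 0 Gy and on 0 of 3 at 12 Gy, with a change of -0.50 ± 0.18 (adjusted p = 0.12). The ligand Tnfsf15 changed in lung by -0.12 ± 0.24 at 12 Gy by its brightest probe, while its second probe read 8.14, 7.78 and 8.18 at 0 Gy and 7.18, 7.72 and 7.25 at 12 Gy, with a trend of -0.78 ± 0.15 (adjusted p = 0.00084).

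Tnfrsf1a, the main TNF receptor of most cells, was not called. In lung it read 12.10, 11.96 and 9.87 at 0 Gy, 11.80, 11.99 and 12.12 at 1 Gy, 12.24, 12.03 and 12.06 at 2 Gy, a mean of 11.23 ± 0.44 (SD, n = 3) with a lowest mouse of 10.72 at 4 Gy, 11.84 and 11.68 at 8 Gy, and 10.33 and 10.25 at 12 Gy, with 1 reading each at 8 and 12 Gy missing as an outlier spot. The 0 Gy lungs spread widest (SD 1.25, against 0.05 to 0.44 at the other doses), and because of 1 low control the 0 and 12 Gy groups overlapped, although both 12 Gy readings lay below every reading from 1 to 8 Gy. The 12 Gy change was -1.02 ± 0.49 (adjusted p = 0.15) and the trend -1.12 ± 0.48 (adjusted p = 0.088). Its second probe read 9.09, 9.73 and 9.06 at 0 Gy and 9.18, 9.53 and 9.27 at 12 Gy, with a trend of 0.22 ± 0.20 (adjusted p = 0.43), so the 2 probes differed in sign. In liver Tnfrsf1a changed by 0.52 ± 0.34 at 12 Gy (adjusted p = 0.44). Tnfrsf21, a death receptor of neurons and T cells, changed by 0.38 ± 0.28 in lung and by -0.02 ± 0.25 in liver (adjusted p = 0.36 and 0.99).

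Tnfrsf1b, the TNF receptor that lacks a death domain and is found on leukocytes and endothelium, was the family gene with the smallest adjusted p of any liver trend. Liver readings were 8.46, 8.49 and 8.49 at 0 Gy, 8.34, 8.31 and 8.47 at 1 Gy, 8.20, 8.35 and 8.47 at 2 Gy, 8.95, 8.63 and 8.89 at 4 Gy, 8.95, 8.97 and 8.91 at 8 Gy, and 9.06, 9.13 and 9.51 at 12 Gy. From 4 Gy up every liver lay above every control. The 12 Gy change was 0.75 ± 0.13 (adjusted p = 0.0023) and the trend 0.87 ± 0.12 (adjusted p = 0.00016), under the fold threshold. With the slide as a fixed term the trend was 0.44 (adjusted p = 0.41), within the slide of the 2 to 12 Gy livers the level changed by 0.46 ± 0.16, and within that of the 0 to 2 Gy livers by -0.21 ± 0.06. In lung the 0 Gy mice read 9.27, 9.16 and 9.27, and the 1 Gy mice 8.84, 8.85 and 8.81. The 2 Gy mice read 8.99, 9.07 and 8.79, and the 4 Gy mice 8.72, 8.80 and 8.80. The 8 Gy mice read 8.38, 8.41 and 9.04, and the 12 Gy mice 9.07, 9.48 and 9.03. Every lung from 1 to 8 Gy lay below every control. The 12 Gy lungs, all on the slide scanned on another day, overlapped the controls. The straight line through all doses gave a lung trend of -0.02 ± 0.19 (adjusted p = 0.96). Of the 8 macrophage markers, 0 were called in liver at 12 Gy and 7 passed the adjusted p alone, downward, opposite in direction to Tnfrsf1b. From 4 Gy up, the summed level of 10 of the 11 neutrophil markers lay above its controls, as Tnfrsf1b did. The sum ran from 14.29 to 14.42 at 0 Gy, 14.77 to 14.88 at 4 Gy, 14.95 to 15.20 at 8 Gy and 14.65 to 15.11 at 12 Gy. It was already above its controls at 2 Gy (14.65 to 14.77), where Tnfrsf1b was not. At 12 Gy 1 of those 10 was called up (Lcn2) and 1 down (Camp), and Cxcr2 was above background on 0 liver arrays. The part of either cell type in the rise was not tested.

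**Figure D3:**
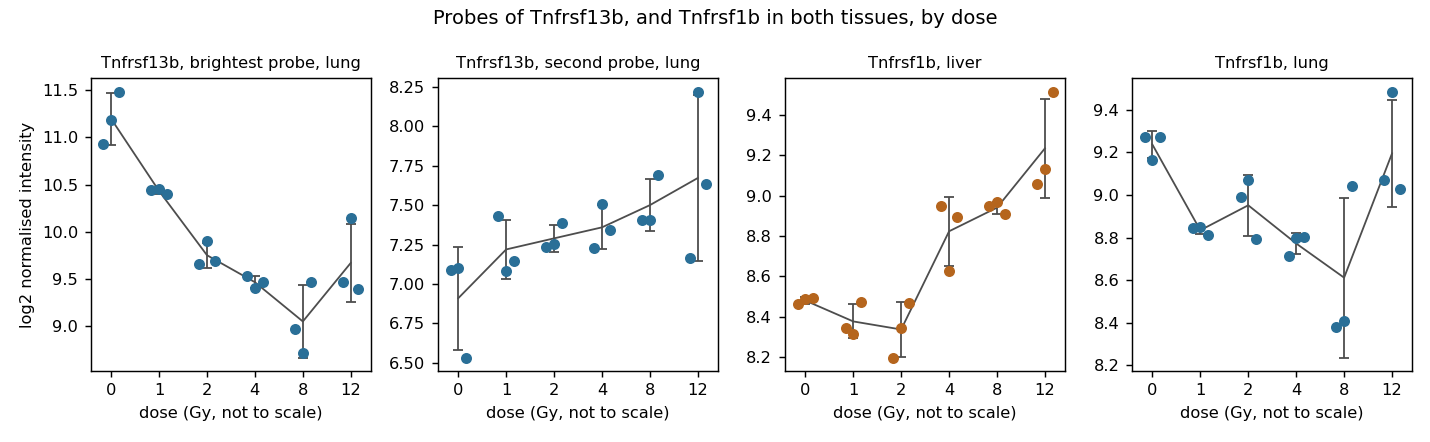
Log2 normalized intensity against dose in Gy of the brightest and second probes of Tnfrsf13b in lung, and of Tnfrsf1b in liver and lung, with points for mice and lines with bars for means with SD. The probes of Tnfrsf13b separate with dose, and liver Tnfrsf1b goes from 8.46 to 8.49 at 0 Gy up to 9.06 to 9.51 at 12 Gy, each panel on its own vertical scale.

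The remaining members act mostly in bone, epithelium and stroma. Tnfrsf11a (RANK), the receptor that drives osteoclasts, read 7.80, 7.78 and 7.71 in the 0 Gy lungs and 8.10, 8.46 and 8.22 at 12 Gy, with no overlap and a trend of 0.44 ± 0.11 (adjusted p = 0.0067). Its ligand Tnfsf11 (RANKL) was above background on 3 lung arrays only, and Tnfrsf11b (osteoprotegerin), the secreted decoy of RANKL, changed by 0.39 ± 0.27 in lung and by -0.30 ± 0.23 in liver at 12 Gy, both within the spread. Tnfrsf12a, the receptor of TWEAK that rises with tissue injury, read 9.37, 9.54 and 9.18 in the 0 Gy livers and 9.91, 9.47 and 10.01 at 12 Gy, which overlapped (change 0.44 ± 0.24, adjusted p = 0.34), and in lung it changed by 0.12 ± 0.21. Its ligand Tnfsf12 (TWEAK) changed by -0.08 ± 0.18 in liver and by -0.06 ± 0.24 in lung. Tnfrsf19 (TROY), a receptor of epithelial and neural progenitors, had a liver trend of -0.49 ± 0.17 by its brightest probe (adjusted p = 0.074) and of -0.56 ± 0.13 by its second (adjusted p = 0.0083), and a lung trend of 0.08 ± 0.15.

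Whether dose acted differently on the 2 tissues was tested with both normalized together, as the lung trend minus the liver trend. Of the 38 family probes, 2 were called (7.19% of all 47376 probes), and 5 passed the adjusted p alone (16.5% of all probes). The trend of Tnfrsf13c was more negative in lung by 3.54 ± 0.61 on the log2 scale (difference -3.54, adjusted p = 0.00018), where liver started near background and lung ended there. With the slide as a fixed term this difference was -1.40 (adjusted p = 0.94). The second probe of Tnfrsf13b was more positive in lung (1.06, adjusted p = 0.014), and that call was lost without liver 1 Gy mouse 2 (1.00), liver 8 Gy mouse 25 (0.98), liver 12 Gy mouse 16 (0.81), lung 0 Gy mouse 21 (0.96) or lung 12 Gy mouse 16 (0.88). In liver that probe was above background on 3 of 18 arrays, which bounds what its liver trend can measure. For the brightest probe of Tnfrsf13b the difference was not called, and neither was that of Tnfsf10 or Tnfrsf18. Below the fold threshold, Tnfrsf1b was more negative in lung (-0.81, adjusted p = 0.015), and past that threshold without lung 12 Gy mouse 16 (-1.03). So were the second probe of Tnfrsf9 (-0.91, adjusted p = 0.029) and, with the opposite sign, the second probe of Tnfrsf19 (0.80, adjusted p = 0.034).

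Unirradiated lung and liver differed in many members of the family. At 0 Gy, 17 of the 38 probes were higher in lung (18% of all 47376 were) and 2 lower (16.8%), which are 14 and 2 of the 27 genes by their brightest probe. The median difference of the family probes, lung minus liver, was 0.82, against -0.05 over all probes. The member probes of Tnfrsf17, Tnfrsf9 and Tnfsf11 and the second probe of Tnfsf15 were above background on no liver array. They were members through lung arrays alone. The probe of Tnfsf9 and the brightest of Tnfsf15 were above background on 1 liver array each. The higher level of these probes in lung follows in part from the filter, which all 47376 probes passed. By role, 5 of 9 ligands, 1 of 3 death domain receptors, 0 of 3 decoy or secreted receptors and 8 of 12 TRAF-binding receptors were higher in lung.

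**Figure D4:**
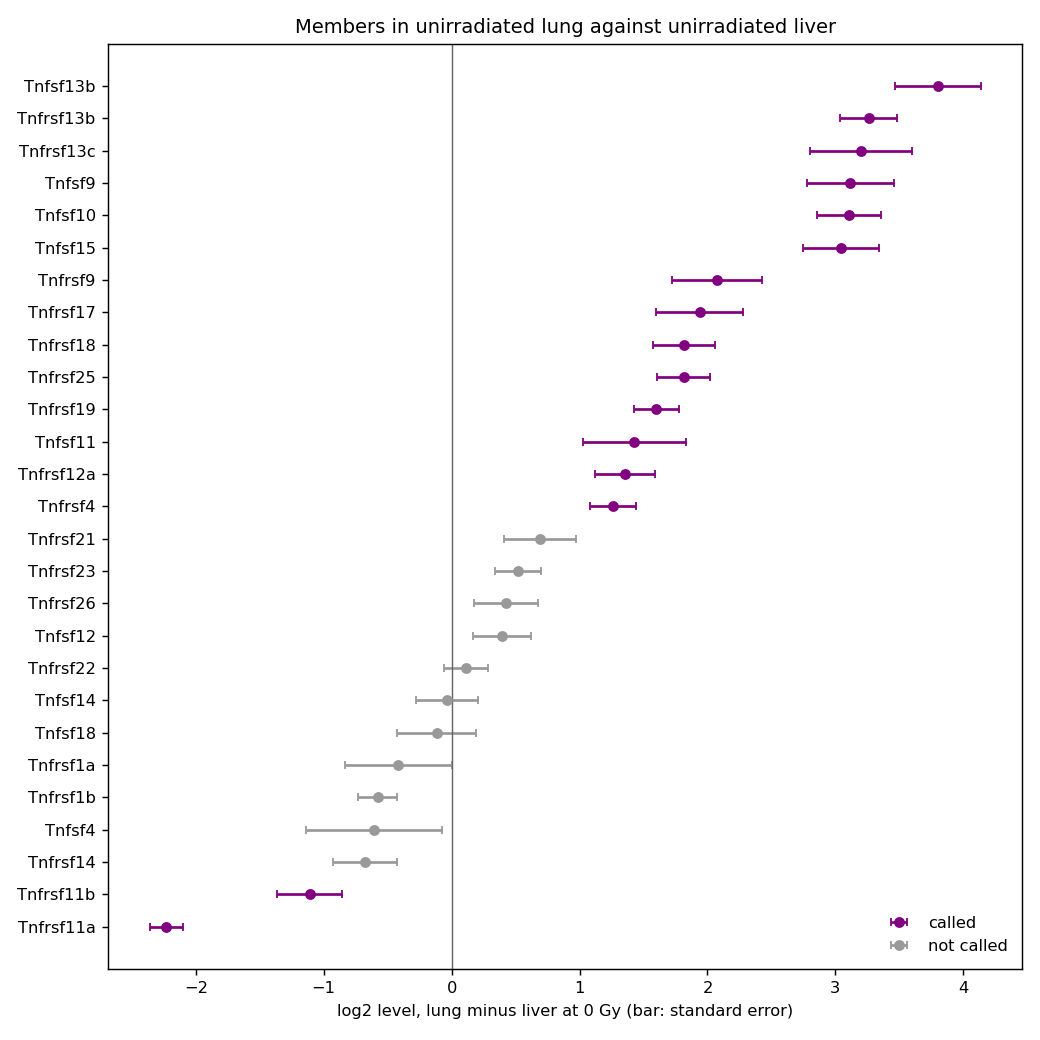
Log2 difference between unirradiated lung and liver (lung minus liver, 3 mice each) for the brightest probe of each of the 27 genes, with bars for the SE of the fit and filled points for called genes. Genes run from Tnfrsf11a at -2.23 to Tnfsf13b at 3.80.

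The BAFF system made up the top of that order with other ligands. Tnfsf13b was higher in lung by 3.80 ± 0.34 (means 5.53 in liver, where it was above background on 1 of 3 arrays, and 9.33 in lung), Tnfrsf13b by 3.26 ± 0.23 (7.42 and 10.68), Tnfrsf13c by 3.20 ± 0.40 (5.99 and 9.19) and Tnfsf10 by 3.11 ± 0.25 (9.13 and 12.23), which are differences within the SE of each other for the last 3 of these. Where liver was above background on 0 of 3 arrays only a bound holds, and lung was higher at least 8.67-fold for Tnfsf9, at least 7.86-fold for Tnfsf15, at least 3.76-fold for Tnfrsf9, at least 2.97-fold for Tnfrsf17 and at least 1.72-fold for Tnfsf11. The family receptors of T cells Tnfrsf18 (1.82 ± 0.24), Tnfrsf25 (1.81 ± 0.21) and Tnfrsf4 (1.26 ± 0.18) and the epithelial or stromal receptors Tnfrsf19 (1.60 ± 0.18) and Tnfrsf12a (1.36 ± 0.23) followed. Liver was higher for Tnfrsf11a (-2.23 ± 0.13) and Tnfrsf11b (-1.11 ± 0.26), the receptor and the decoy of RANKL. Second probes went against 2 of these, with Tnfrsf11a higher in lung by 0.95 ± 0.25 and Tnfrsf19 lower by 0.61 ± 0.23 on the log2 scale (difference -0.61, adjusted p = 0.025). The second probe of Tnfrsf13b was higher in lung by only 1.04 ± 0.26. That of Tnfrsf13c differed by 0.94 ± 0.59 and was not called (adjusted p = 0.19), being above background on 1 of these lung arrays and on no liver array. The remaining probe of Tnfrsf13b was above background in neither tissue. Beside this, 12 of 14 B cell markers and 11 of 13 T cell markers were higher in unirradiated lung, with medians of 2.68 and 2.24, and their part was not tested.

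The relatives of the family that carry other names were measured from a list of 15, of which 13 were tested in lung and 11 in liver. In lung 2 were called up and 3 down at 12 Gy (7.29% of all lung probes were called), and in liver 1 up and 2 down (2.06% of all). Eda2r, the receptor of ectodysplasin and a known p53 target, rose in both tissues, by 2.28 ± 0.18 at 1 Gy and 4.46 ± 0.18 at 12 Gy in lung, and in liver at least 3.56-fold at 2 Gy and at least 10.3-fold at 12 Gy over controls that were not above background. Its ligand Eda rose in lung by 1.09 ± 0.19 at 12 Gy. The lymphotoxins fell, with Ltb changing by -3.86 ± 0.20 in lung and -2.23 ± 0.13 in liver at 12 Gy, and Lta by -1.53 ± 0.24 in lung. Their receptor Ltbr changed by -1.37 ± 0.42 in lung at 12 Gy. The nerve growth factor receptor Ngfr changed by -1.27 ± 0.26 in liver at 12 Gy, and Cd27, a family receptor of T cells, by -1.28 ± 0.30 at 4 Gy and -1.27 ± 0.30 at 8 Gy in lung. Beside Eda2r, 10 of 10 p53 targets rose in lung and 7 of 10 in liver at 12 Gy.

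Signalling genes downstream of the receptors were read in the same fits. Of 15 adaptors and cell death genes, all tested in both tissues, 1 was called down in liver and 0 in lung at 12 Gy (5 lung genes had an unadjusted p under 0.05 in limma, as did 35.3% of all lung probes and 20.5% of all liver probes). The liver gene was Ripk3, the kinase of necroptosis, which changed by -1.17 ± 0.15 at 8 Gy and -1.36 ± 0.15 at 12 Gy (adjusted p = 0.00012). By trend, 2 of the 15 were called down in liver and 1 in lung. The liver genes were Ripk3 (-1.22 ± 0.15) and the adaptor Traf1 (-1.13 ± 0.26, adjusted p = 0.0082). Of the NF-kappaB genes, 0 of 15 tested in liver and 0 of 16 in lung were called at 12 Gy, with 5 and 10 at an unadjusted p under 0.05 in limma, and the median change was -0.02 in liver and 0.03 in lung. Of 4 genes that shed or handle TNF, Adam17, the enzyme that releases TNF from the membrane, was called in lung at 12 Gy (-1.04 ± 0.31, adjusted p = 0.028) and 0 in liver, where 1 had an unadjusted p under 0.05.

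In the tissue comparison without radiation, 6 of the 16 NF-kappaB genes were higher in lung and 2 lower. The higher ones were the inhibitors Nfkbia (1.18 ± 0.14), Tnfaip3 (1.95 ± 0.20) and Tnip1 (1.15 ± 0.19) and the alternative pathway genes Nfkb2 (1.31 ± 0.15), Relb (2.03 ± 0.15) and Map3k14 (1.26 ± 0.22), and the lower ones the kinase subunits Chuk (-1.07 ± 0.16) and Ikbkg (-1.34 ± 0.16). Among the adaptors and cell death genes, Traf1 (5.03 ± 0.27), Traf3 (1.05 ± 0.16) and Traf5 (1.19 ± 0.15) were higher in lung, and Bid (-2.05 ± 0.17) and Ripk1 (-1.06 ± 0.22) were among those lower. Of the relatives, Cd40 (2.66 ± 0.19) and Ltb (2.92 ± 0.17) were higher in lung, Cd27 at least 2.90-fold, Lta at least 2.78-fold and Eda2r at least 1.88-fold, while Tnf (-1.98 ± 0.18) and Ngfr (-2.19 ± 0.27) were lower. Of the shedding genes, Adam10 (1.37 ± 0.18), Rhbdf2 (1.79 ± 0.21) and Timp3 (3.69 ± 0.24) were higher in lung.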

How the data were processed

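Liver and lung RNA of 36 samples was measured on single-colour Agilent mRNA arrays, and miRNA arrays of the series were not used. The authors deposited scanner output of Agilent Feature Extraction (11.5.1.1, per the file headers) with spot intensity, local background and flags, and a series table of linear intensity, scaled so that the 75th percentile of each of its 36 columns was 1.0 to 1.01 (medians 0.055 to 0.08). How that table was made is not given in the sources used here, and its log2 served as an alternative only. The study's methods, written for liver, name normexp background correction, quantile normalization and limma, and these were applied to both tissues. From the median spot signal and local background, normexp (offset 0) was computed in R 4.3.3 with limma 3.58.1, control spots were dropped, outlier spots were set missing (5 family values), values were quantile normalized within each tissue (both together for tissue comparisons) and spots of a probe were averaged on the log2 scale. A share of 0.5 or more of a probe's spots had to be well above background for the probe to count so on an array, and probes that did on no array of a fit were dropped, which left 38362 probes in liver, 43979 in lung and 47376 jointly. Each dose was set against 0 Gy, dose was also fitted as a line, and p-values were adjusted by Benjamini-Hochberg over all probes tested. Calls needed a log2 change over 1 and an adjusted p under 0.05. Nothing beyond separate sample labels says how the mice were housed or paired, so p-values measure the spread between these samples.

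Probes were named through their transcript accession in RefSeq's gene table, which matched 34566 of 56605 probes. The 9009 probes that carry an Ensembl transcript were not named here. The symbols left out by the rule and 1 called gene of the fixed lists are not reported here. Named genes were all members, with full statistics for called genes and the next by adjusted p of the trend up to 6 a tissue, by the brightest probe, and every other called gene of the fixed lists. The members and lists were chosen with earlier results of these data known. Bounds written as at least N-fold take the dim group at the lowest signal that counted as above background on each array. The fits were tested on simulated data. Alternatives tried were an offset of 50, scaling to the 75th percentile, the processed signal, the deposited series values, other filters on dim probes, averaged probes, the adjusted p alone, slide terms, mouse blocks, leaving out each mouse and, chosen after seeing the data, leaving out the slide scanned on another day and slopes within slides.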

Additional observations from a re-analysis of the deposited data

Results flagged for a closer look

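The dose trends of 11 measured probes differed between lung and liver by the test of that difference itself (limma, adjusted p under 0.05), each given as the lung trend minus the liver trend over 12 Gy on the log2 scale. In the family, Tnfrsf13c differed by -3.54 (adjusted p = 0.00018), the second probe of Tnfrsf13b by 1.06 (adjusted p = 0.014), Tnfrsf1b by -0.81 (adjusted p = 0.015), the second probe of Tnfrsf9 by -0.91 (adjusted p = 0.029) and the second probe of Tnfrsf19 by 0.80 (adjusted p = 0.034). Liver Tnfrsf13c was above background on 0 of 3 arrays at 8 and at 12 Gy, which bounds what its liver trend can measure. The second probe of Tnfrsf9 was above background on 0 of 3 liver arrays at 0 Gy. The second probe of Tnfrsf13b was above background on 1 of 3 liver arrays at 0 Gy and on 0 of 3 at 12 Gy.

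Among relatives and adaptors, Ltb differed by -1.92 (adjusted p = 0.012), Ltbr by -1.49 (adjusted p = 0.0059) and Lta by -1.15 (adjusted p = 0.028). The differences ran the other way for Ngfr at 1.37 (adjusted p = 0.0055), for Traf1 at 1.99 (adjusted p = 0.00019) and for Traf3 at 1.1 (adjusted p = 0.00045). B cell markers moved with the lymphoid genes here, since 10 of 14 of them also had a more negative trend in lung, and their part in these differences was not tested.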

How the results depend on the processing

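Of 1969 values of single genes under the alternatives, 1878 kept their direction and their side of the thresholds, 43 lost a call, 39 gained one, 9 uncalled values changed sign and 0 called values did. The lung count of probes called at 1 dose or more (4) was 9 with the processed signal, 9 with the deposited series values and 12 by the adjusted p alone (3 up), and the lung trend count (4) was 9, 10 and 13 (3 up), 2 with the slide as a fixed term and 8 without the slide scanned on another day. That last fit held no 12 Gy lung, and its line through 0 to 8 Gy was extended to 12 Gy. The liver count at 1 dose or more (3) was 0 with an offset of 50, 1 with probes averaged and 1 with the slide as a fixed term, and the liver trend count (1) was 2 with the processed signal, 2 with the series values, 5 by the adjusted p alone and 0 with the slide fixed. The count of trends that differ between tissues (2) was 1 with an offset of 50, 6 with the processed signal, 6 with the series values, 5 by the adjusted p alone, 1 with probes averaged and 0 with the slide fixed. The causes were not tested. Leaving out each mouse gave 4 to 5 and 3 to 5 in lung, 1 to 3 and 1 to 2 in liver, 1 to 3 for the tissue difference and 18 to 20 for unirradiated lung against liver (19), which ran from 13 to 28 under the other settings. With the replicate block (mouse number, random or fixed) the counts stayed at 2 and 19, and the numbers did not show pairing, since same-numbered liver and lung residuals correlated between -0.07 and 0.10 and 7 of 18 correlated best with their own number. A fixed slide term could not be estimated for lung doses or the unirradiated comparison. Scaling to the 75th percentile moved the median of all probes to 0.25 in lung at 12 Gy (0.09 otherwise) and to -0.56 between unirradiated tissues (-0.05), and no called direction turned. Signals near background (Tnfrsf13c, Tnfrsf14, Tnfsf11 and liver Tnfrsf13b) limit what could be measured.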
